A study of Mus musculus with 34 samples.

Results

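The classical inflammatory cytokines and mediators examined here were 9 genes: Il1a, Il1b, Tnf, Il6, Il12b, Il10, Nos2, Ptgs2 and Ptx3. They were chosen by name, and all 9 were found among the 32098 genes listed for each library. Expression was measured by RNA-seq in the stromal vascular fraction (SVF) of perigonadal visceral fat from male C57BL/6J mice. The SVF is the pelleted, non-adipocyte part of a fat pad after collagenase digestion, a mixture of macrophages and other leukocytes with fibroblastic, vascular and mesothelial cells. All mice entered the study at 6 weeks of age and were fasted for 6 hours before tissue was taken. High fat diet (HFD, 60% of kcal from fat) was given for 8, 20 or 34 weeks (6 libraries each), and control diet (CHOW) for the same times (4, 5 and 7 libraries), so that the mice were 14, 26 or 40 weeks old at the end. The study asked how gene expression in visceral fat changes as obesity progresses, and these genes give its inflammatory side. Each time point was a sequencing experiment of its own. Weeks on diet, age and sequencing experiment therefore cannot be told apart in any comparison between times.

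IL-1α and IL-1β (Il1a and Il1b), TNF and IL-6 are the cytokines that macrophages and stromal cells release early when a danger signal reaches them. They act through receptors that lead to NF-kB or STAT3, and NF-kB in turn switches on many of their own genes. Il12b encodes the subunit shared by IL-12 and IL-23, which activated myeloid cells make to direct T cells. Il10 encodes the main cytokine that restrains this response, usually made by the same activated macrophages a little later. Nos2 encodes the inducible nitric oxide synthase and Ptgs2 the inducible cyclooxygenase of prostaglandin synthesis. Ptx3 is the long pentraxin, a secreted pattern recognition protein made by fibroblasts, mesothelial and myeloid cells in answer to IL-1 and TNF. In obese fat, TNF, IL-1β and IL-6 are known as products of the macrophages that gather around dying adipocytes.

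The promoters of the 3 members with the highest mean level over all libraries are shown, a choice made because more than 3 members were called. In these 3, and also in Il1a and Il12b, all HFD libraries of 20 weeks lay above all those of 8 weeks, as described further on. The same held for 2.89% of all genes. Whether the motifs bear on it was not tested. Sequences are from RefSeq (GRCm38.p6). Each is the 250 bases before the start of transcription, written 5′ to 3′ on the strand of the gene, and capitals mark every match to a motif searched.
Il1b (chr2:129371140-129371389, minus strand): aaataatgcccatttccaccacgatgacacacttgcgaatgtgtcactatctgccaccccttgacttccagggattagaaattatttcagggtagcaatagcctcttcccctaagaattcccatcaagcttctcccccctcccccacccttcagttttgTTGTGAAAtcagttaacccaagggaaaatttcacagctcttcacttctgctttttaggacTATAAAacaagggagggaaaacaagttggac
Ptx3 (chr3:66219637-66219886, plus strand): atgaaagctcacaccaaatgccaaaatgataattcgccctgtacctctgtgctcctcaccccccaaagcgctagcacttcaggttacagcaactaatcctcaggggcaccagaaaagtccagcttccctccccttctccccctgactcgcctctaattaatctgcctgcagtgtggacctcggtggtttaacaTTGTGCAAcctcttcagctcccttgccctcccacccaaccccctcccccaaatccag
Tnf (chr17:35202008-35202257, minus strand): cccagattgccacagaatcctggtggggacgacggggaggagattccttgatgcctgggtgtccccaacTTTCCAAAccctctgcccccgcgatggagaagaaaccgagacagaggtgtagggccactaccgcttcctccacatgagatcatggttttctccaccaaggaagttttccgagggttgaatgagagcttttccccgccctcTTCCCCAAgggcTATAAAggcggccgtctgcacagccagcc

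The motifs searched were the C/EBP motif TTNNGNAA, the AP-1 motif TGANTCA, the cyclic AMP response element TGACGTCA and the NF-kB consensus, each on both strands, and the TATA box TATAAA on the strand of the gene. The C/EBP motif was found in all 3 sequences, at -91 to -84 in Il1b, at -57 to -50 in Ptx3 and at both -181 to -174 and -41 to -34 in Tnf, counted back from the start site. Il1b and Tnf had a TATA box, at -31 to -26 and -29 to -24, and Ptx3 had none in this window. Promoters were on hand for 7 of the 9 members (not for Il10 and Nos2), and 6 of them held the C/EBP motif, as did 36.8% of all 32851 promoters. The TATA box was in 3 of the 7 against 7.59% of all promoters, and the AP-1 motif in 2 of the 7 against 6.75%. The NF-kB consensus was found in Il6 alone, at -44 to -35, and in 7.25% of all promoters. The cyclic AMP response element was in no member and in 1.55% of all promoters. No matches overlapped, a match is a run of letters and not a shown binding site, and elements farther upstream lie outside these windows.

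Levels are given as TPM, a share of each library corrected for transcript length, which allows levels of different genes to be set side by side. Averaged over the 34 libraries, Il1b (749 TPM), Ptx3 (737 TPM), Tnf (672 TPM) and Il6 (467 TPM) were the abundant members. Without CHOW 8 week replicate 3 the mean of Il1b was 649.95 TPM, below those of Ptx3 (746 TPM) and Tnf (674 TPM), and at 34 weeks the group means of Ptx3 were below those of Tnf, Il1b and Il6 on both diets. Il10 (147 TPM), Ptgs2 (119 TPM) and Il1a (64.4 TPM) lay lower, and Il12b (6.83 TPM) and Nos2 (4.21 TPM) were low. Il12b was the only member that fell below 1 TPM in any library, in 4 of the 7 CHOW libraries of 34 weeks. All 9 members passed the filter on low values. Levels at 34 weeks come from a table made apart from that of 8 and 20 weeks, so they are set beside the earlier ones without a test. In an mRNA share from a mixed pellet, fewer cells of a type and less RNA per cell cannot be told apart.

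**Figure D1:**
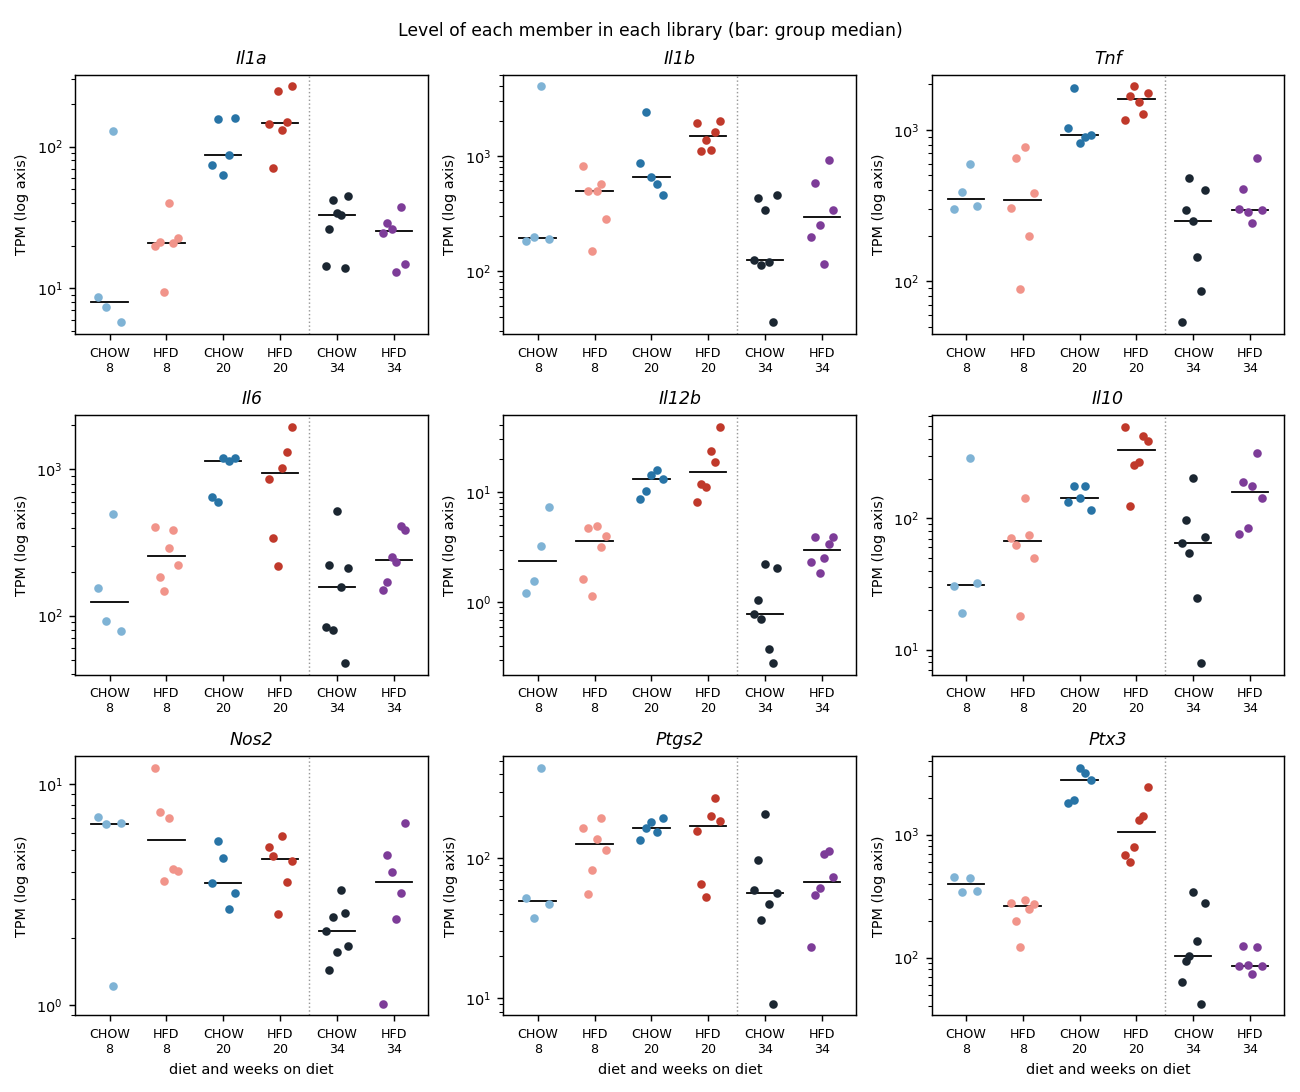
TPM of each member in each of the 34 libraries, on a log axis, by diet and weeks on diet, with bars at the group medians and a dotted line between the separately made tables. For Tnf, Il12b and Ptx3 every 20 week library lies above every 8 week library of the same diet, and the CHOW 8 week library at 4005 TPM of Il1b stands far above the other 3.

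Some libraries stood apart. CHOW 8 week replicate 3 held 4005 TPM of Il1b, against 183, 196 and 190 TPM in the other 3 libraries of its group. It was also the highest of its group for Il1a, Tnf, Il6, Il10 and Ptgs2, and the lowest for Nos2. In the same library the summed TPM of 6 neutrophil markers was 2050 (97.9 to 1208 in the others), that of 4 endothelial markers 133 (488 to 656) and that of 5 adipocyte markers 2585 (7853 to 10126). HFD 8 week replicate 3 carried seminal vesicle transcripts at 110604 TPM in all, against at most 14.9 TPM in any other library, and was the lowest of its group for Il1a, Il1b, Tnf, Il6, Il12b, Il10, Nos2 and Ptx3. The summed TPM of 4 germ cell genes reached 10830 in an HFD library of 20 weeks and 4776 in one of 34 weeks. It was 1020 in HFD 8 week replicate 4 and at most 452 in any CHOW library. HFD 8 week replicate 4 was kept where libraries holding RNA of another tissue are left out below. Adipocyte markers reached 24818 TPM in CHOW 34 week replicate 6. Macrophage, fibroblast, mesothelial and endothelial markers were all detected in every group, with no marker of these lists at 0 throughout a group. Between 13200 and 17213 genes reached 1 TPM in a library, and read depth is unknown from TPM.

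The main pattern among the members was a difference between 8 and 20 weeks on both diets. From 8 to 20 weeks on HFD, 6 of the 9 members rose (Il1a, Tnf, Il6, Il12b, Il10 and Ptx3) and none fell. Of all 16808 genes tested, 8.78% were called in either direction and 6.12% were called higher. From 8 to 20 weeks on CHOW, 3 of the 9 members rose (Il6, Il12b and Ptx3), where 0.613% of all genes were called and 0.458% were called higher. The median log2 fold change (log2FC) of the members was 2.12 on HFD, where that of all genes was 0.09, and 1.58 on CHOW, where that of all genes was -0.09. Called means an adjusted p below 0.05 in limma across all genes, and log2FC values are of TPM + 1. Of the genes called on HFD 69.8% were higher, against 58.8% under median-ratio scaling and 40.8% under quantile normalization, which moved the median of all genes to -0.06.

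Ptx3 had the lowest p of the 9 members over time on either diet. On CHOW it was at 456, 340, 441 and 349 TPM at 8 weeks and at 1812, 1923, 3485, 3162 and 2793 TPM at 20 weeks. On HFD it ranged from 122 TPM over a median of 261 to 293 TPM at 8 weeks, and from 596 over 1052 to 2455 TPM at 20 weeks. On each diet all libraries of 20 weeks lay above all those of 8 weeks. Its log2FC was 2.69 on CHOW (SE 0.34, adjusted p 0.00135) and 2.24 on HFD (SE 0.29, adjusted p 5.18e-05). On CHOW it ranked 1 by p among all genes tested. Both calls held with each library left out in turn and in every other alternative run for them.

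Tnf was at 299, 387, 599 and 316 TPM in the CHOW libraries of 8 weeks and at 1029, 1904, 822, 892 and 933 TPM in those of 20 weeks. In the HFD libraries it ranged from 88.8 TPM over a median of 344 to 771 TPM at 8 weeks, and from 1161 over 1613 to 1945 TPM at 20 weeks. Every 20 week library was above every 8 week library on both diets. The rise on HFD was 2.27 on the log2 scale (SE 0.38, adjusted p 6.01e-04), and it held in all alternatives run. On CHOW the log2FC of 1.46 (SE 0.44) did not pass adjustment (adjusted p 0.134). There it was called in 3 of 10 other alternatives and in 0 of 9 leave-one-out fits.

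Il1a was at 8.66, 7.44, 129 and 5.79 TPM at 8 weeks on CHOW and at 74.1, 158, 63.4, 87.1 and 159 TPM at 20 weeks. Without CHOW 8 week replicate 3, which alone reached the 20 week range, all CHOW libraries of 20 weeks were above those of 8 weeks. On HFD it ranged from 9.39 TPM over a median of 21.1 to 40.1 TPM at 8 weeks and from 71.2 over 147 to 267 TPM at 20 weeks, with no overlap. Its log2FC on HFD was 2.84 (SE 0.54, adjusted p 0.00208). It was 2.63 on CHOW (SE 0.63, adjusted p 0.0565) and 3.63 without CHOW 8 week replicate 3 (adjusted p 4.07e-04). On CHOW Il1a was called in 5 of 10 other alternatives and, of 9 leave-one-out fits, only in that 1.

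For Il1b the same library decided the CHOW comparison. The other 3 CHOW libraries of 8 weeks were at 183 to 196 TPM, and those of 20 weeks were at 860, 2396, 651, 565 and 453 TPM. With all libraries the log2FC was 0.99 (SE 0.70, adjusted p 0.618), and without CHOW 8 week replicate 3 it was 2.09 (adjusted p 0.0365). On HFD Il1b ranged from 150 TPM over a median of 496 to 808 TPM at 8 weeks and from 1093 over 1497 to 2013 TPM at 20 weeks. The HFD groups did not overlap, and the log2FC of 1.84 (SE 0.60) had an adjusted p of 0.0593. It was called in 5 of 11 other alternatives (adjusted p 0.00577 to 0.276 over the 11) and in 0 of 12 leave-one-out fits. Il1bos, which the annotation places on the opposite strand across Il1b, did not exceed 7.68 TPM in any library.

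Il6 was at 155, 91.7, 492 and 78.9 TPM at 8 weeks on CHOW and at 650, 603, 1202, 1136 and 1196 TPM at 20 weeks, with no overlap. On HFD it ranged from 148 TPM over a median of 257 to 405 TPM at 8 weeks and from 217 over 947 to 1945 TPM at 20 weeks, and the groups overlapped. Its log2FC was 2.57 on CHOW (SE 0.56, adjusted p 0.0405) and 1.54 on HFD (SE 0.48, adjusted p 0.0497). Both calls lay near the threshold. Of the other alternatives, 7 of 10 kept the call on CHOW (adjusted p up to 0.0838) and 4 of 11 that on HFD (up to 0.131). That on CHOW was lost without CHOW 8 week replicate 1, 2 or 4 or CHOW 20 week replicate 3, 4 or 5 (adjusted p up to 0.187), and that on HFD without any of the 6 HFD libraries of 8 weeks or HFD 20 week replicate 1, 4, 5 or 6 (up to 0.103).

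Il12b was at 1.21, 1.57, 3.22 and 7.39 TPM at 8 weeks on CHOW and at 8.69, 10.2, 14.3, 15.8 and 13.1 TPM at 20 weeks. On HFD it ranged from 1.15 TPM over a median of 3.58 to 4.91 TPM at 8 weeks and from 8.18 over 15.2 to 38.7 TPM at 20 weeks. Neither diet showed overlap between the times. Its log2FC was 1.80 on CHOW (SE 0.42, adjusted p 0.0469) and 2.12 on HFD (SE 0.36, adjusted p 6.95e-04). The CHOW call was lost without CHOW 8 week replicate 1, 2 or 3 or CHOW 20 week replicate 3, 4 or 5 (adjusted p up to 0.153).

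Il10 was at 30.3, 19.1, 285 and 32.01 TPM at 8 weeks on CHOW and at 134, 176, 143, 176 and 116 TPM at 20 weeks. Here too CHOW 8 week replicate 3 was the single overlapping library. On HFD it ranged from 18.1 TPM over a median of 66.7 to 142 TPM at 8 weeks and from 124 over 330 to 495 TPM at 20 weeks, with some overlap. Its log2FC was 2.31 on HFD (SE 0.51, adjusted p 0.00718). It was 1.58 on CHOW (SE 0.60, adjusted p 0.255) and 2.43 without that library (adjusted p 0.0146).

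Neither inducible enzyme was called over time on either diet, by limma. Nos2 stayed between 1.01 and 11.8 TPM in all 34 libraries. Its log2FC from 8 to 20 weeks was -0.24 on CHOW (SE 0.35, adjusted p 0.861) and -0.37 on HFD (SE 0.30, adjusted p 0.451). Ptgs2 was at 52.4, 37.7, 445 and 46.9 TPM at 8 weeks on CHOW and at 135, 167, 184, 155 and 195 TPM at 20 weeks. Its log2FC was 1.03 (SE 0.57, adjusted p 0.485), and 1.85 without CHOW 8 week replicate 3 (adjusted p 0.0432). On HFD Ptgs2 ranged from 55.5 to 194 TPM at 8 weeks and from 52.5 to 269 TPM at 20 weeks, with a log2FC of 0.20 (SE 0.49, adjusted p 0.832) that turned to -0.03 with quantile normalization and to -0.10 with sample quality weights.

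Groups without overlap were counted as well. On CHOW 4 of the 9 members (Tnf, Il6, Il12b and Ptx3) had all 20 week libraries above all 8 week libraries, as had 2.61% of all genes. On HFD there were 5 (Il1a, Il1b, Tnf, Il12b and Ptx3), and 2.89% of all genes. Without CHOW 8 week replicate 3 the members called on CHOW were 6 (Il1a, Il1b, Il6, Il10, Ptgs2 and Ptx3). Of all 16808 genes 183 were then called, against 103 with all libraries. With HFD 8 week replicate 3, the library with seminal vesicle transcripts, also left out, 8 members were called on CHOW, all but Nos2. Of all genes 488 were called in that fit. Leaving out both was chosen after the values had been seen. CHOW 8 week replicate 3 itself stands out by values of these same members. Of the 9 leave-one-out fits on CHOW, only that without it called Il1a, Il1b, Il10 or Ptgs2. The calls made without it are therefore given as a description. On HFD, 4 libraries that carried RNA of another tissue were left out (8 week replicate 3 and 20 week replicates 3, 4 and 5). HFD 8 week replicate 4, with germ cell genes at 1020 TPM in all, was kept. Tnf, Il12b and Ptx3 were then still called, where 743 of all genes were. Il1a, Il6 and Il10 were not (adjusted p 0.0599, 0.131 and 0.103).

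The diet by time interaction, which asks whether the diet difference at 20 weeks differed from that at 8 weeks, called none of the 9 members by limma, where 0.297% of all genes were called (54% of them higher, 34.5% under median-ratio scaling and 17.3% under quantile normalization). No member had an unadjusted p under 0.05 in it. The lowest adjusted p was 0.516, for Tnf, with an interaction of 0.81 (SE 0.58). The calls made on HFD and not on CHOW are thus not shown to differ between the diets.

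**Figure D2:**
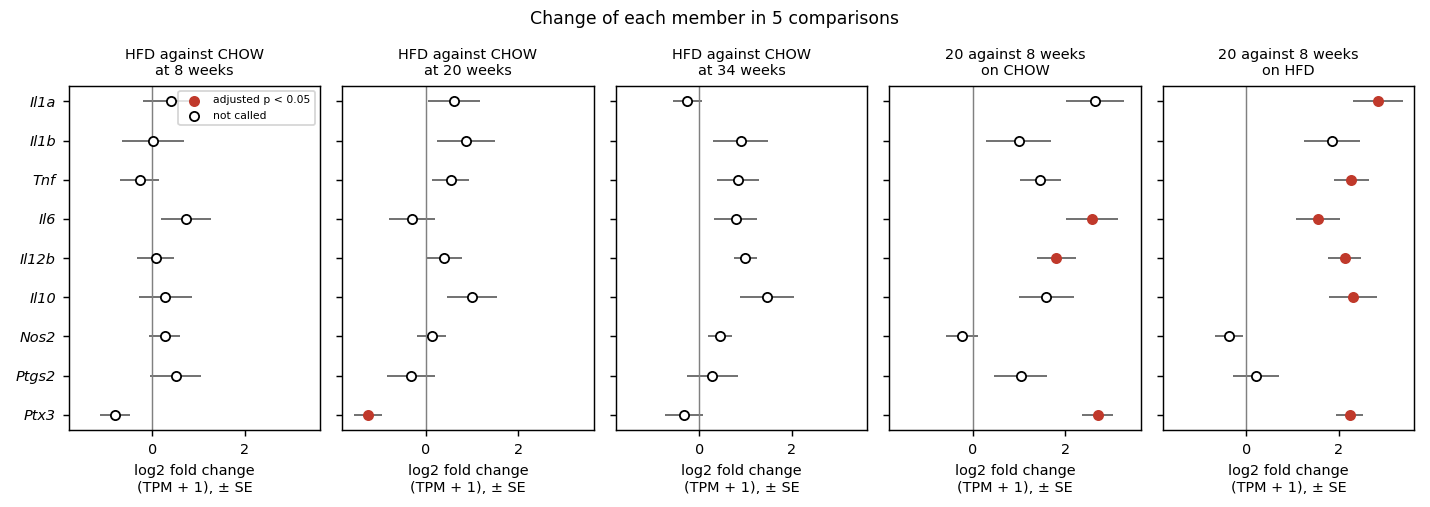
Log2 fold change of TPM + 1 with its standard error for each member in 5 comparisons, with filled points for an adjusted p below 0.05. On the 2 time comparisons 3 and 6 members are called, all to the right of 0, and on the 3 diet comparisons only Ptx3 at 20 weeks, to the left of 0.

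The diet comparisons asked whether HFD itself moved these genes. At 8 weeks none of the 9 members was called by limma, where 0.0238% of all genes were, and 1 had an unadjusted p under 0.05. That member was Ptx3 (log2FC -0.80, SE 0.33, 95% interval -1.48 to -0.12, adjusted p 0.427). It ranged from 122 to 293 TPM in the 6 HFD libraries and from 340 to 456 TPM in the 4 CHOW libraries. The share of all genes without overlap was not counted for this comparison. For Tnf the 95% interval was -1.15 to 0.60, and for Il1b -1.39 to 1.42. Il1b is the widest of the 9, and without CHOW 8 week replicate 3 its log2FC was 1.12 instead of 0.02, with no call in either case. These intervals are not adjusted for the number of genes tested, so they do not give the size of difference that would have been called. The absence of a call does not show that a member was unchanged.

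At 20 weeks 1 of the 9 members was called, where 14.3% of all genes were, 65.1% of them higher on HFD (47.1% under quantile normalization). Ptx3 was lower on HFD (log2FC -1.25, SE 0.31, 95% interval -1.89 to -0.62, adjusted p 0.0102). The 6 HFD libraries ranged from 596 to 2455 TPM and the 5 CHOW libraries from 1812 to 3485 TPM. HFD replicate 6 lay inside the CHOW range and the other 5 HFD libraries below it. The call held in all 11 leave-one-out fits and all 10 other alternatives. The intervals of the remaining members included 0, and the largest of their log2FC values was 1.01 for Il10 (SE 0.54, adjusted p 0.215). That of Tnf was 0.54 (SE 0.39, adjusted p 0.381), that of Il1b 0.87 (SE 0.63, adjusted p 0.375) and that of Il6 -0.30 (SE 0.51, adjusted p 0.734). Il10 was called (adjusted p 0.0439) when only the libraries of 20 weeks were fitted. Nos2 was 0.13 higher on the log2 scale and 0.04 lower (-0.04) with quantile normalization, neither called.

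Markers of several cell types moved in the same comparison. All 5 mesothelial markers and 3 of 5 fibroblast and progenitor markers were lower on HFD at 20 weeks, and 3 of 6 macrophage markers were higher. All 4 mast cell markers were higher (median log2FC 1.58) and all 5 red cell markers lower (-1.74), 3 of 5 adipocyte markers were lower and 1 higher, and 2 of 5 T cell markers were lower. Single neutrophil (Retnlg) and dendritic cell (Cd209a) markers were lower. The summed mesothelial markers ranged from 56.6 to 178 TPM on HFD and from 174 to 582 TPM on CHOW. The fibroblast markers summed to 2763 to 5051 TPM on HFD and 4388 to 6792 TPM on CHOW, and the macrophage markers to 6743 to 12583 and 3859 to 9322 TPM. With HFD 20 week replicates 3, 4 and 5 left out, 1 mesothelial, 1 fibroblast and 3 macrophage markers were called, and Ptx3 still was. Their part in the Ptx3 difference was not tested.

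At 34 weeks none of the 9 members was called, where 0.243% of all genes were, and 2 had an unadjusted p under 0.05. Il12b had a log2FC of 1.00 (SE 0.24, 95% interval 0.47 to 1.52, adjusted p 0.134). It ranged from 0.284 TPM over a median of 0.784 to 2.21 TPM on CHOW and from 1.85 over 2.96 to 3.904 TPM on HFD, so 2 CHOW libraries lay above the lowest HFD library. It was called without CHOW 34 week replicate 4 (adjusted p 0.0436) and with sample quality weights (0.0251). Il10 had a log2FC of 1.46 (SE 0.58, 95% interval 0.21 to 2.71, adjusted p 0.313), and ranged from 7.93 TPM over 64.9 to 202 TPM on CHOW and from 76.4 over 159 to 313 TPM on HFD. Tnf and Il1b had log2FC values of 0.84 (SE 0.46, adjusted p 0.442) and 0.90 (SE 0.60, adjusted p 0.518). Ptx3, at 42.1 to 343 TPM on CHOW and 73.0 to 124 TPM on HFD, had -0.34 (SE 0.41, adjusted p 0.725).

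The order of the group medians shows where each member was highest. Tnf, Il1b, Il1a and Il12b had their highest median at 20 weeks on HFD and their next highest at 20 weeks on CHOW. Il10 was highest at 20 weeks on HFD too (330 TPM), but HFD at 34 weeks (159 TPM) came next, ahead of CHOW at 20 weeks (143 TPM). None of these 5 genes was called between the diets at 20 weeks. Ptx3 and Il6 had theirs at 20 weeks on CHOW, ahead of HFD. The Il6 medians were 1136 and 947 TPM, with no call between them, while Ptx3 was called. Ptgs2 medians were highest at 20 weeks as well (167 TPM on CHOW and 170 TPM on HFD), and Nos2 was highest at 8 weeks on CHOW (6.60 TPM). At 34 weeks the medians of Ptx3 were 104 TPM on CHOW and 85.9 TPM on HFD, the lowest of the 6 groups.

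Genes around the members in their pathways were taken from 11 lists. From 8 to 20 weeks on HFD, 8 of 15 genes of the NF-kB list were called higher and none lower, with a list median of 0.74 where the median of all genes was 0.09. On CHOW 4 of 15 were higher and none lower. Under the other scalings 9 or 10 were higher on HFD and 7 or 8 on CHOW, and 6 on HFD without the libraries holding RNA of another tissue. Among those called on both diets were the feedback inhibitors of NF-kB: Nfkbia, which encodes IκBα, was at 668 ± 224 TPM (SD, n = 4) at 8 weeks and 1561 ± 133 TPM (n = 5) at 20 weeks on CHOW. On HFD it was at 713 ± 275 TPM (n = 6) and 1845 ± 121 TPM (n = 6). Its log2FC was 1.27 on CHOW (SE 0.26, adjusted p 0.0253) and 1.47 on HFD (SE 0.22, adjusted p 2.08e-04). Tnfaip3, which encodes the deubiquitinating enzyme A20 and belongs to the TNF list too, rose on CHOW by 1.61 (SE 0.30, adjusted p 0.0141) and on HFD by 1.78 (SE 0.26, adjusted p 1.63e-04). Tnip1, an A20 binding protein, rose by 1.47 on CHOW (SE 0.34, adjusted p 0.0462) and 1.51 on HFD (SE 0.29, adjusted p 0.00225).

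Target genes of classical activation, mostly chemokines and surface receptors, gave the highest count of calls, in the list with the most genes tested. On HFD 10 of 22 rose and 2 fell between 8 and 20 weeks, where 6.12% of all genes were called higher. In the NF-kB list 8 of 15 rose. On CHOW 7 of 22 rose and none fell, where 0.458% of all genes were called higher. Without the libraries holding RNA of another tissue 6 rose and 1 fell on HFD. Cxcl1, a neutrophil chemokine, was at 1130 ± 818 TPM at 8 weeks and 5432 ± 1401 TPM at 20 weeks on CHOW (log2FC 2.44, SE 0.38, adjusted p 0.00346). On HFD it went from 1608 ± 542 to 5646 ± 2243 TPM (1.80, SE 0.32, adjusted p 0.00135). Ccl4, a macrophage chemokine, rose by 3.07 on CHOW (SE 0.56, adjusted p 0.0141) and by 2.27 on HFD (SE 0.48, adjusted p 0.00485). The interferon-inducible chemokine gene Cxcl10 rose by 2.59 on CHOW (SE 0.43, adjusted p 0.00714), and the co-stimulatory receptor gene Cd40 by 2.17 on HFD (SE 0.26, adjusted p 2.06e-05).

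**Figure D3:**
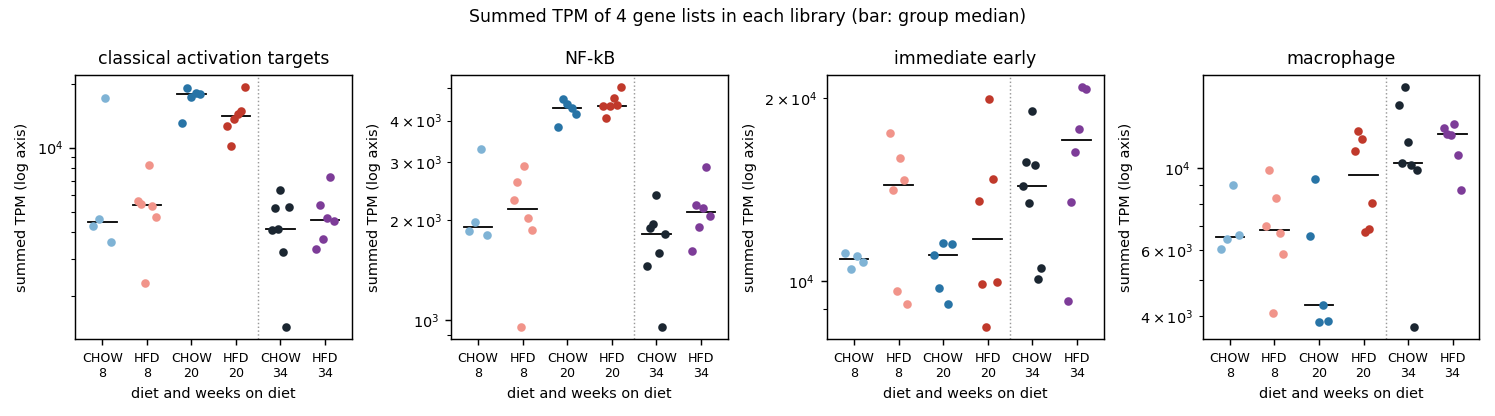
Summed TPM of the genes of 4 lists in each library, on a log axis, by diet and weeks on diet, with bars at the group medians and a dotted line between the separately made tables. For the NF-kB list every 20 week library lies above every 8 week library (3833 TPM or more against 3289 TPM or less), while the immediate early sums of 8 and 20 weeks overlap on both diets.

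The immediate early genes, which tissue handling and digestion are known to induce, were listed for comparison. Between 8 and 20 weeks 1 of 20 was higher on CHOW, and 1 was higher and 1 lower on HFD (1 and 4 under quantile normalization). The rising gene was Zfp36 on both diets, which encodes tristetraprolin, a protein that destabilizes cytokine mRNAs, with log2FC values of 0.92 on CHOW (SE 0.21, adjusted p 0.0462) and 0.71 on HFD (SE 0.18, adjusted p 0.0178). The list summed to 10450 to 11100 TPM at 8 weeks and 9169 to 11537 TPM at 20 weeks on CHOW. On HFD it summed to 9162 to 17480 and 8392 to 19869 TPM. The part of tissue handling in the time difference was not tested.

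Macrophage markers are given beside these rises. On HFD 3 of 6 were higher at 20 than at 8 weeks (the summed markers were at 4073 to 9849 TPM at 8 weeks and 6743 to 12583 TPM at 20 weeks). On CHOW none of 6 was called, by limma, and the sums were 6044 to 9017 TPM at 8 weeks and 3859 to 9322 TPM at 20 weeks, with medians of 6531 and 4278 TPM. None of the 6 was called in the interaction. All 4 mast cell markers rose on HFD and all 5 red cell markers fell, and on CHOW none of either was called. In the interaction 3 of the 4 mast cell markers were called higher. On HFD 4 of 5 adipocyte markers fell (median log2FC -1.33) and 2 of 5 mesothelial markers fell (median -1.18), and on CHOW 1 adipocyte marker (Lep) fell. The part of these cells in the members' changes was not tested.

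Receptors and signal proteins of the single pathways were listed as well. From 8 to 20 weeks 6.12% of all genes were called higher on HFD and 0.458% on CHOW. On CHOW 3 of 16 genes of the TNF list rose, and none of the 19 IL-1 or 14 IL-6 family genes was called, by limma. In the interaction no gene of these 3 lists was called. In the IL-1 list, between 8 and 20 weeks on HFD, 6 of 19 genes rose and 1 fell (2 and 1 without the libraries holding RNA of another tissue), led by the receptor gene Il1r1 (57.0 ± 19.1 to 153 ± 69.0 TPM, log2FC 1.41, SE 0.26, adjusted p 0.00162) and the inflammasome sensor gene Nlrp3 (1.40, SE 0.42, adjusted p 0.0414). Irak3, an inhibitor of IL-1 receptor signalling, rose by 0.84 (SE 0.20, adjusted p 0.0126). In the TNF list 5 of 16 rose, with Tnfaip2 first (256 ± 114 to 1379 ± 218 TPM, 2.54, SE 0.25, adjusted p 5.20e-06) and Cflar, an inhibitor of caspase 8, at 1.05 (SE 0.23, adjusted p 0.00584). In the IL-6 family 5 of 14 rose and 1 fell (2 and 1 without those libraries). Clcf1, a cytokine of that family, rose by 1.61 (SE 0.21, adjusted p 5.09e-05), and Socs3, the feedback inhibitor of STAT3, by 1.08 (SE 0.18, adjusted p 7.07e-04).

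The IL-12 family had 3 of 11 genes higher at 20 weeks on HFD, all of them cytokine subunits, where 6.12% of all genes were higher. Il23a, the partner of the Il12b product in IL-23, was at 0.422 ± 0.351 TPM at 8 weeks and 14.5 ± 11.2 TPM at 20 weeks (log2FC 3.18, SE 0.42, adjusted p 5.71e-05). Il27 and Ebi3, which together form IL-27, both rose, Il27 by 2.01 (SE 0.27, adjusted p 5.81e-05) and Ebi3 by 0.93 (SE 0.21, adjusted p 0.00736). In the IL-10 axis 3 of 7 rose and 1 fell (1 and 1 without those libraries), and Il10ra, the ligand-binding receptor chain, went from 48.8 ± 17.3 to 93.8 ± 17.6 TPM (0.98, SE 0.27, adjusted p 0.0297). Around Nos2, 2 of 12 genes of nitric oxide and arginine metabolism rose: Slc7a2, an arginine transporter, by 1.53 (SE 0.31, adjusted p 0.00321), and Gch1, the entry enzyme of the cofactor tetrahydrobiopterin, by 0.91 (SE 0.20, adjusted p 0.00581). On CHOW no gene of the IL-12, IL-10 or nitric oxide lists was called over time, by limma, nor was any in the interaction. No gene of the pentraxin list, which leaves out Ptx3 itself, was called over time on either diet, by limma.

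The prostaglandin genes around Ptgs2 moved with opposite signs. Ptges, the inducible prostaglandin E synthase, rose between 8 and 20 weeks on CHOW (27.3 ± 2.93 to 63.7 ± 13.9 TPM, log2FC 1.17, SE 0.23, adjusted p 0.0214) and on HFD (0.85, SE 0.20, adjusted p 0.00998). On HFD Hpgds, the prostaglandin D synthase of blood cells, rose by 1.53 (SE 0.22, adjusted p 1.68e-04) while Ptgs1, the constitutive cyclooxygenase, fell (log2FC -1.33, SE 0.22, adjusted p 5.40e-04). HFD against CHOW at 20 weeks gave 2 genes higher and 6 lower of 18, and 2 and 2 without the libraries holding RNA of another tissue. Ptgis, prostacyclin synthase, averaged 42.99 ± 5.66 TPM on HFD against 132 ± 25.5 TPM on CHOW (-1.58, SE 0.26, adjusted p 4.56e-04). Ptgs1 was lower as well (log2FC -1.48, SE 0.23, adjusted p 2.99e-04) and Hpgds higher (1.38, SE 0.23, adjusted p 7.26e-04).

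**Figure D4:**
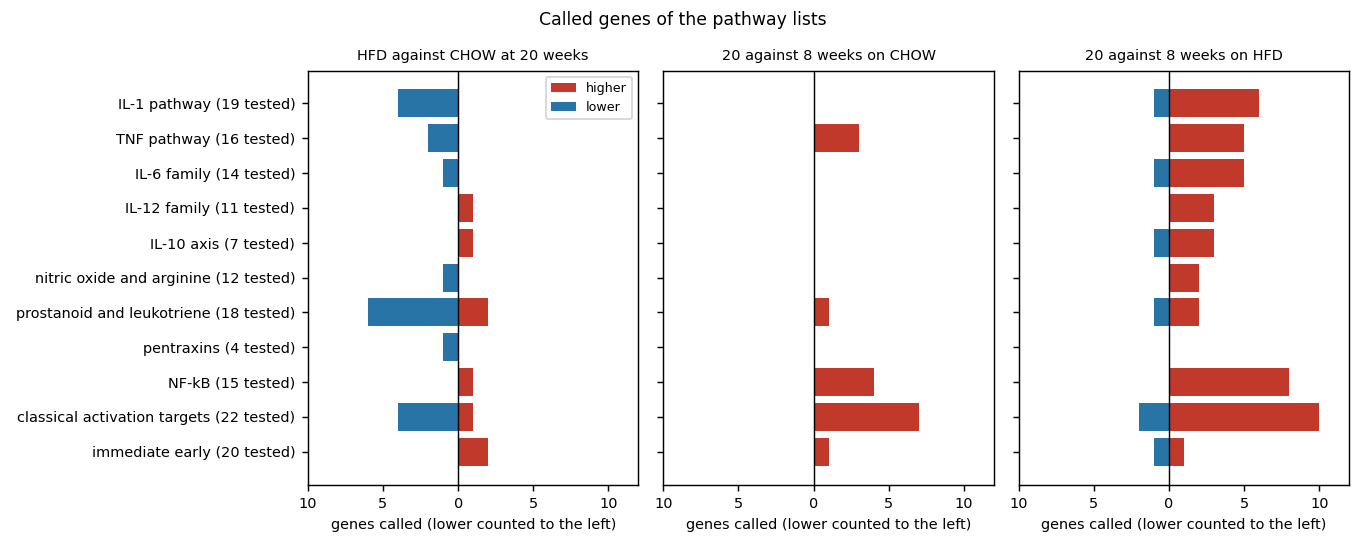
Number of genes called higher (right of 0) and lower (left of 0) in each of 11 pathway lists for HFD against CHOW at 20 weeks and for 20 against 8 weeks on each diet. The NF-kB and classical activation lists have 4 and 7 genes higher over time on CHOW and 8 and 10 on HFD, and the IL-1 list has 4 genes lower on HFD at 20 weeks.

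In the IL-1 list, in the diet comparison at 20 weeks, 4 of 19 genes were called lower on HFD, where 4.99% of all genes were. Without the libraries holding RNA of another tissue 2 were lower, and under the other scalings 6 or 7 were lower and 1 higher. The 4 included the IL-18 gene Il18 (14.8 ± 3.21 against 26.4 ± 7.40 TPM) and its receptor genes Il18r1 and Il18rap (log2FC values -0.78, -0.79 and -1.25, adjusted p 0.0213, 0.0158 and 0.00182). In the TNF list Ltb, a lymphotoxin subunit, was lower (log2FC -1.91, SE 0.27, adjusted p 1.26e-04), as was Birc2, an inhibitor of cell death (-0.50, SE 0.15, adjusted p 0.0320). Under both other scalings 6 genes of that list were lower, and without the libraries holding RNA of another tissue 1 was. Of the classical activation targets 4 of 22 were lower and 1 higher. Saa3, an acute phase protein, averaged 141 ± 49.8 TPM on HFD against 1299 ± 1088 TPM on CHOW (-2.89, SE 0.71, adjusted p 0.0106), and Lcn2, lipocalin 2, averaged 28.4 ± 9.70 against 173 ± 115 TPM (-2.39, SE 0.54, adjusted p 0.00651). Il23a was higher on HFD by 1.84 (SE 0.44, adjusted p 0.00895) and Il10ra by 1.12 (SE 0.29, adjusted p 0.0144). Without the libraries holding RNA of another tissue none of the 7 genes of the IL-10 axis was called, so the Il10ra call was lost. At 8 and at 34 weeks no gene of the 11 lists was called by limma.

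The genes most like each member were sought over the 21 libraries of 8 and 20 weeks, as Pearson r of log2(TPM + 1). The libraries fall into 4 groups, which share their experiments, so r within groups (group means removed) and over the 13 libraries of 34 weeks are given with it as a description. Ptx3 was most like Ccl2, the monocyte chemokine gene (r 0.97, 0.96 with group means removed, 0.85 at 34 weeks), then Csf1, the macrophage growth factor gene, and Ccl7 (each 0.97 over the 21 libraries). Il1b was most like Cd14, the lipopolysaccharide co-receptor gene (0.95, 0.95 and 0.93). Il6 was most like Cxcl1 (0.94, 0.88 and 0.84), and Tnfaip6, a secreted hyaluronan-binding protein, was among its 5 nearest genes (0.92, 0.99 and 0.88). Tnf was most like a gene that had no symbol here (0.97, 0.93 and 0.68), and was near Cflar (0.96, 0.94 and 0.75) and Nfkbia (0.95, 0.86 and 0.84).

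The remaining members had other neighbours. Il1a was most like Tnfaip3 (0.94, 0.82 and 0.23), and Il10 had Il1a itself among its 5 (0.93, 0.84 and 0.19), neither of which carried over to 34 weeks as closely. Il10 was most like Dusp5, a phosphatase acting on ERK (0.93, 0.89 and 0.87). Il12b was most like Mab21l3 (0.91, 0.71 and 0.35), then Eno2 (0.89). Icam1 (0.88) and Vcam1 (0.88), both adhesion molecules, came after these, with 0.53 and 0.52 once group means were removed. Ptgs2 was most like Lif, a cytokine of the IL-6 family (0.87, 0.92 and 0.82). Nos2 stood with Fgd5, Egfl7 and Tie1, genes known from endothelial cells (0.93, 0.92 and 0.92), with 0.44, 0.57 and 0.45 at 34 weeks. Mtss1l (0.92) and Ppm1f (0.92) were among its 5 nearest genes too.

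**Figure D5:**
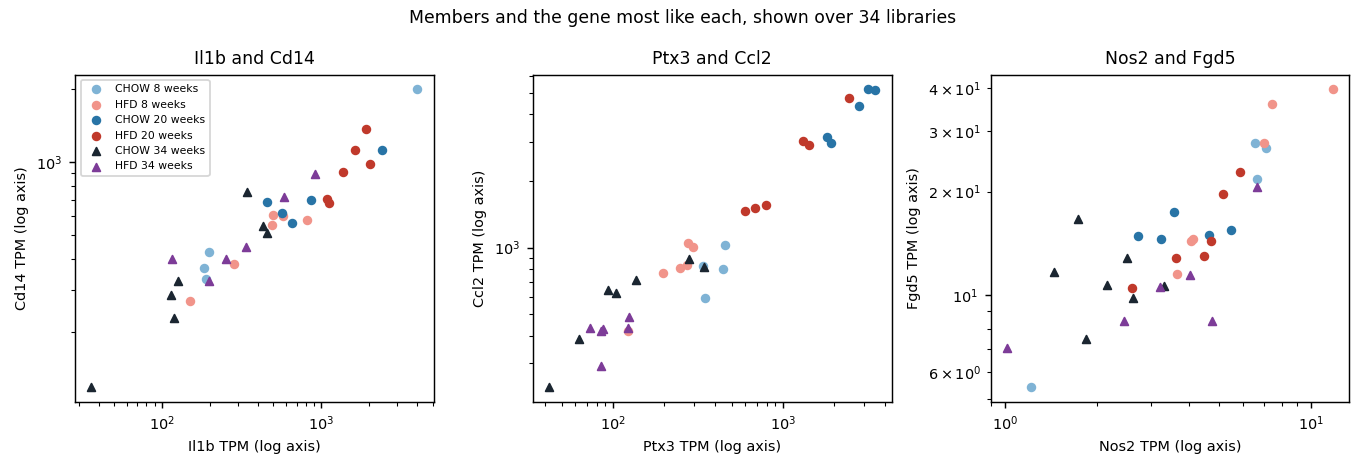
TPM of Il1b, Ptx3 and Nos2 against that of the gene most like each (Cd14, Ccl2 and Fgd5) in 34 libraries, on log axes, with circles for 8 and 20 weeks and triangles for 34 weeks. The points of Il1b and Cd14 and of Ptx3 and Ccl2 lie along a line through all groups (r 0.95 and 0.97 over the 21 libraries of 8 and 20 weeks), and the CHOW 8 week library highest for Il1b (4005 TPM) is lowest of that group for Nos2 (1.22 TPM).

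Within the members themselves Il10 and Il1a (r 0.93), Il10 and Il1b (0.89) and Il1a and Tnf (0.85) were the closest pairs over the 21 libraries. With group means removed Il6 and Ptgs2 were closest (0.88), and Il6 and Tnf had 0.04. Nos2 had a negative r with each of the other 8 members over the 21 libraries, from -0.50 with Il1a to -0.19 with Tnf. With group means removed it was positive with Tnf (0.12) and Ptx3 (0.05), and at 34 weeks it was positive with 6 of the 8, at most 0.33 with Il12b, so the sign did not hold across these views.

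Identifiers are those of the deposited tables, and positions are from the GRCm38 annotation (gencode M21), where all 9 members are protein coding genes. Il1a (ENSMUSG00000027399.1, minus strand, 129299610 to 129309972) and Il1b (ENSMUSG00000027398.13, minus strand, 129364570 to 129371139) lie side by side on chromosome 2. Il10 (ENSMUSG00000016529.5, plus strand, 131019845 to 131024974) and Ptgs2 (ENSMUSG00000032487.8, plus strand, 150100031 to 150108227) are on chromosome 1. Il12b (ENSMUSG00000004296.14, plus strand, 44400063 to 44414033) and Nos2 (ENSMUSG00000020826.7, plus strand, 78920787 to 78960254) are on chromosome 11. Tnf (ENSMUSG00000024401.14, minus strand) is on chromosome 17 at 35199381 to 35202007, Il6 (ENSMUSG00000025746.11, plus strand) on chromosome 5 at 30013114 to 30019981 and Ptx3 (ENSMUSG00000027832.5, plus strand) on chromosome 3 at 66219910 to 66225805. Ptx3 lies across Veph1 on the opposite strand, which did not exceed 0.346 TPM, and Il1a across Gm14023, which did not exceed 0.997 TPM.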

How the data were processed

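RNA-seq libraries of the SVF (34, stranded poly(A)) were analysed from the values the authors deposited, TPM per gene, in 1 table for 8 and 20 weeks and another for 34 weeks. The authors used FastQC, MultiQC, Trimmomatic and Salmon against gencode M10 (mm10). Versions, and whether Salmon was told the strand: not given in the sources used here. TPM is a share of a fixed total, so each gene's value depends on the others, and it keeps no depth.

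IDs were matched to symbols with gencode M21. The test took the 16808 genes that reached 1 TPM in 4 libraries or more (8 and 20 weeks) or the 13982 that did so in 6 or more (34 weeks), and was made with limma 3.58.1 in R 4.3.3 on log2(TPM + 1), with 1 mean per group, a mean-variance trend, two-sided tests and Benjamini-Hochberg adjustment over all genes of a comparison. The log2(TPM + 1) scale understates changes of low genes. The tables were fitted apart. The fit was checked on simulated data. Groups came from sample titles, which number replicates without saying that each is another mouse. The p-values therefore set differences against the spread between these samples, which may be technical.

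Members, lists and tests were chosen with earlier results of these data known. Named beside the members were up to 3 called genes per list and comparison with the largest change, the 5 genes most like each member, and the promoters of the 3 members with the highest mean TPM. Alternatives were pseudocount, filters, scaling, sample weights, a replicate block and libraries left out. A RefSeq promoter was used for 7 members.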

Additional observations from a re-analysis of the deposited data

Results flagged for a closer look

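In groups of 4 to 7 libraries, the highest or lowest library was set against the rest on the log2 scale by Dixon's test, for each member in each group. Of 54 such sets 5 had a library far from the others, where chance alone gives about 1 in 20. Of these, 4 were the same library, CHOW 8 week replicate 3. It was far above the other 3 CHOW libraries of 8 weeks for Il1a (129.2 TPM against 5.79 to 8.66), Il1b (4005 TPM against 183 to 196) and Ptgs2 (444.9 TPM against 37.7 to 52.4), and far below them for Nos2 (1.216 TPM against 6.56 to 7.10). The fifth was Tnf in CHOW 20 week replicate 2, at 1904 TPM against 822 to 1029 TPM in the other 4 libraries of that group. The neutrophil markers of that library summed to 1424 TPM and its macrophage markers to 9322 TPM, both the highest of its group, and its mesothelial (174 TPM), fibroblast (4388 TPM) and adipocyte (4434 TPM) sums were the lowest.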

How the results depend on the processing

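Of 1231 member values recomputed under alternatives, 1124 kept their direction and side of the threshold, 37 lost a call, 26 gained one and 44 changed sign, none of these 44 with a call. The cause was not tested for any of them. The number of members called at 20 weeks between diets went from 1 to 2 with only the 2 groups fitted. At 34 weeks it went from 0 to 1 with sample quality weights, and from 0 to 1 over the leave-one-out fits. Between 8 and 20 weeks on CHOW it went from 3 to 1 with no filter or only the 2 groups, and to 5 with median-ratio scaling. It went to 8 with sample quality weights or without both 8 week libraries that stood apart (chosen after the values were seen). With single libraries left out it went to between 1 and 6. On HFD it went from 6 to 3 without the libraries holding RNA of another tissue. Over all genes, calls on CHOW went from 103 to 49 with no filter, 68 with only the 2 groups and 433 with median-ratio scaling. They went to 1659 with sample quality weights and to 488 without both 8 week libraries. On HFD they went from 1475 to 743 without the libraries holding RNA of another tissue.

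HFD against CHOW at 8 weeks changed sign for Tnf (quality weights 0.25, other-tissue libraries out 0.094, both 8 week libraries out 0.31), Nos2 (both out -0.068) and Il12b (replicate block -0.13), and at 20 weeks for Nos2 (quantile -0.036). Ptgs2 over time on HFD gave -0.033 (quantile) and -0.10 (weights). The interaction changed sign for Il1a (weights -0.61, other-tissue out -0.14, both out -1.0), Il1b (weights -0.014, both out -0.53), Il12b (weights -0.17), Il10 (weights -0.36, both out -0.45) and Nos2 (weights 0.070, both out 0.20).

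With single libraries left out, log2 fold changes between diets at 8 weeks ranged from -0.023 to 1.40 for Il1a, -0.37 to 1.12 for Il1b, -0.53 to 0.094 for Tnf, -0.18 to 0.46 for Il12b, -0.15 to 1.13 for Il10 and -0.18 to 0.44 for Nos2. They ranged from -0.58 to 0.056 for Il6 at 20 weeks and from -0.12 to 0.61 for Ptgs2 at 34 weeks. For Ptgs2 over time on HFD the range was -0.0057 to 0.47. In the interaction it was -0.79 to 0.63 for Il1a, -0.24 to 1.25 for Il1b, -0.065 to 0.58 for Il12b, -0.12 to 1.16 for Il10 and -0.31 to 0.31 for Nos2.

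Replicate numbers were to be taken as pairing only where the deviations of every same-numbered pair correlated above 0.1. No comparison met this: over time on HFD all 6 pairs were positive (0.047 to 0.40, 4 of them above 0.1), as were all 4 between diets at 8 weeks (0.026 to 0.21), and the other comparisons held negative pairs. With the replicate block 0, 1 and 0 members were called between diets at 8, 20 and 34 weeks, 2 over time on CHOW (Il6 adjusted p 0.0694), 6 over time on HFD and 0 in the interaction. A stricter filter gave no value for Il12b and Nos2 at 34 weeks. Fitting only the 2 groups is the same fit at 34 weeks and was not run for the interaction. Depth is unknown from TPM.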
